A study of Mus musculus with 24 samples.

Results

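The genes of the cytosolic ribosomal proteins were followed in the mouse mediobasal hypothalamus, a basal brain region around the arcuate nucleus. They were taken by symbol, as every gene named Rpl or Rps with a number, or Rplp with a number, after S6 kinase and pseudogene symbols were left out. This gave 62 of 19938 genes with a probe set of their own, 30 of the large subunit, 20 of the small subunit, 3 of the stalk and 7 paralogs. The symbol rule also took Rps19bp1, a regulator that is no ribosomal protein, and the retrogene Rps23rg1. A further 20 symbols of the family, among them Rpl11, Rpl13a, Rps24 and Rps27, had probe sets only in common with other symbols and were not members. The genes were measured in 24 samples of the strain labelled C57BL76J, in 8 groups of 3 arrays given by 2 conditions and 4 times. Times are counted in hours from lights on (zeitgeber time, ZT) and were ZT1, ZT7, ZT13 and ZT19. Timed sleep restriction (TSR) meant that mice were woken by gentle handling between ZT0 and ZT6 for 5 days. After 2 days of free sleep the restriction was repeated for 5 days, and control mice (CON) were left undisturbed alongside. No genotype other than the strain is named for either condition. The sources used here give neither the age of the mice nor the day of tissue collection. The spread that enters the p-values is that between these arrays, and it may in part be technical.

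Ribosomal proteins assemble with ribosomal RNA into the small subunit, which reads the messenger RNA, and the large subunit, which joins amino acids. The acidic proteins of the stalk recruit elongation factors to the large subunit. Messenger RNAs of these proteins begin with a run of pyrimidines, the terminal oligopyrimidine tract, through which mTOR signalling controls their translation, and cells usually make the proteins in matched amounts. Hypothalamic neurons hold many ribosomes for the synthesis of peptides and synaptic proteins.

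Values are log2 probe-set signals, and all differences are TSR minus CON on that scale. A probe set's level cannot be set against another's, so only differences within a gene were read. Of the 62 genes, 56 passed a filter at the 40th percentile of mean signal (5.84 log2 units) and were tested with 11963 genes in all. The genes under the filter were Rpl12, a protein at the base of the stalk, and 5 paralogs. These were Rpl39l and Rpl10l, known from testis, Rpl3l, known from muscle, Rps27l and Rpl32l. In 4 arrays the values covered a narrow range, with an interquartile range of 2.12 to 2.25 against 2.96 to 3.29 in the other 20. These are TSR ZT1 replicate 3, TSR ZT13 replicate 2 and CON ZT19 replicates 2 and 3. For each contrast, the count of calls among the 56 genes is therefore given for 24 arrays and for the 20 others. In the 20, CON ZT19 keeps 1 array and borrows its spread from the remaining groups. Single genes, gene lists and markers are given from the 20-array fit where 24 arrays are not named. The median residual standard deviation of a gene was 0.361 with 24 arrays and 0.111 with 20. With 24 arrays all tested genes had a median difference of -0.21 (ZT1), -0.18 (ZT13) and 0.59 (ZT19), so changes at those times are read beside these medians. With 20 arrays it was 0.04, 0.00 and 0.08. Of 12 marker genes of the arcuate and ventromedial nuclei 11 were measured, and Npy, Th, Kiss1 and Ghrh were above the filter, whereas Pomc, Nr5a1, Nkx2-1 and Rax were below it.

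The ribosomal protein genes as a group lay lower in TSR than in CON at ZT7 and ZT13. On each array the shift of the 56 genes from their own means over the 20 arrays was summarised by its median. At ZT7 the shift was 0.11, 0.18 and 0.03 in CON and -0.13, -0.14 and -0.12 in TSR, so that all 3 TSR arrays lay below all 3 CON arrays. At ZT13 it was 0.07, 0.14 and 0.17 in CON and -0.10, -0.79 and -0.04 in TSR, where -0.79 belongs to the narrow array. At ZT19 the 3 TSR arrays were at -0.11, -0.21 and -0.17 and CON replicate 1 at 0.04, but the 2 narrow CON arrays were at -0.95 and -1.05. At ZT1 the order was the other way in the arrays of usual range, with TSR at 0.10 and 0.11 and CON between 0.01 and 0.02. The median of all tested genes was 0.05 and 0.04 on these TSR arrays and between -0.01 and 0.03 in CON ZT1. At ZT7 it was 0.01, 0.02 and -0.09 in CON and -0.03, -0.02 and -0.01 in TSR. On the narrow arrays it was -0.74 in TSR ZT13 and -0.817 and -0.835 in CON ZT19. In bulk tissue, fewer cells of a type and less RNA per cell cannot be told apart.

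**Figure D1:**
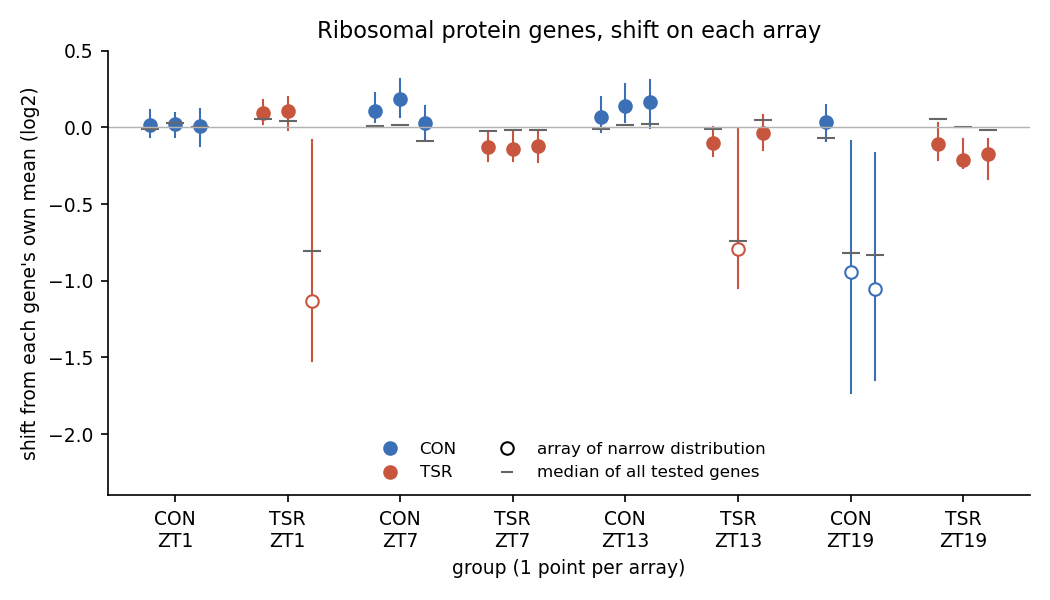
Median shift of the 56 tested ribosomal protein genes on each of the 24 arrays (log2 units, y axis) by group (x axis), measured from each gene's mean over the 20 arrays of usual range. Vertical lines span the interquartile range of the genes, grey bars mark the median of all tested genes, and open points are the 4 narrow arrays; at ZT7 the CON points (0.03 to 0.18) and the TSR points (-0.14 to -0.12) do not overlap.

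Averaged over the 4 times with equal weight, 1 of the 56 genes passed with 24 arrays, against 2.40% of all tested genes (287 of 11963, limma, Benjamini-Hochberg adjusted p under 0.05). This was Rplp2, an acidic stalk protein, which fell by 0.36 ± 0.073 (SE, log2 scale, 12 arrays per condition, limma adjusted p = 0.011), as did 1.66% of all genes. An unadjusted p under 0.05 was found for 6 of the genes. Counts at that threshold, here and below, were not set beside those of all genes and do not show a change of the group. Without TSR ZT1 replicate 3 the count of 1 became 2, and without TSR ZT13 replicate 2 it became 4. With the 20 arrays, 39 of the 56 genes passed, 32 lower and 7 higher, where 22.8% of all tested genes were lower and 33.5% higher in TSR (56.3% in all). The median difference of the 56 genes was -0.13 in both fits, beside 0.02 and 0.03 for all tested genes. Array weights estimated for the 24 arrays turned the direction, with 27 genes higher, 18 lower and a median of 0.07. The shares of all genes under these weights are not given here. By subunit, 12 of 20 small subunit genes and 16 of 29 large subunit genes were lower, 2 and 4 were higher, and all 3 stalk genes were lower. Rps10, a small subunit protein that is ubiquitinated when ribosomes stall, fell by 0.47 ± 0.059 (adjusted p = 1.8e-06), but its difference with 24 arrays was -0.40 ± 0.19 (adjusted p = 0.293). Rpl38, a large subunit protein known from the Tail-short mouse, fell by 0.37 ± 0.045 (adjusted p = 1.52e-06), and its difference with 24 arrays was -0.27 ± 0.31 (adjusted p = 0.71), which turned to 0.28 with array weights. The 7 genes that were higher included Rpl30 (0.31 ± 0.045), Rpl41 (0.20 ± 0.030), Rpl5 (0.20 ± 0.036) and Rps4x (0.20 ± 0.045). In the same average of 20 arrays, all 7 tested markers of the sampled arcuate and ventromedial nuclei were lower (median -0.26). All 6 suprachiasmatic markers (median -0.41) and 4 of 5 paraventricular and supraoptic markers (-0.53) were lower too. Higher were 5 of 6 markers of basal forebrain and striatum (median 0.70) and 3 of 4 of thalamus and cortex (0.60). Their part in the average difference was not tested.

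ZT7, a time of day after the hours of handling, is the time at which neither condition had a narrow array. Whether TSR mice were handled on the day of collection is not given. In the 20-array fit, 32 of the 56 genes were lower in TSR and 0 were higher, where 13.8% of all tested genes were lower and 12.9% higher (26.7% in all). With 24 arrays, whose spread is larger, 0 of the 56 passed beside 0.460% of all genes, and 3 had an unadjusted p under 0.05. Without TSR ZT13 replicate 2 this count of 0 became 1. Fitted to the 6 arrays of ZT7 alone, 22 of the genes were lower and 0 higher, against 8.89% lower among all genes. The median difference was -0.24 in each of these fits, beside 0.00 for all tested genes, and 7 of the 56 genes were above 0. For 32 genes every TSR array lay below every CON array, where 18.8% of genes with a value on each array did, and Rpl7l1 alone of the 56 lay above on every TSR array (17.3% of all genes). Of the 20 small subunit genes 14 were lower, of the 29 large subunit genes 16, and of the 3 stalk genes Rplp2 alone.

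In the small subunit, Rps10 was measured at 9.13, 9.28 and 8.76 in CON ZT7 and at 8.33, 8.32 and 8.41 in TSR ZT7. Each TSR array was below each CON array, and the difference of -0.70 ± 0.10 (SE, 20 arrays, limma adjusted p = 2.95e-05) was the largest fall among the 56 genes. Rps25, a protein that some internal ribosome entry sites need, was at 9.21, 9.50 and 9.08 in CON and 8.62, 8.71 and 8.70 in TSR. The groups again did not overlap, and it fell by 0.59 ± 0.12 (adjusted p = 0.000806). Rps6, the protein that the S6 kinases phosphorylate, was at 11.33, 11.59 and 11.37 in CON and 11.03, 11.09 and 10.87 in TSR, a fall of 0.43 ± 0.091 (adjusted p = 0.00146). Rps3, which lines the channel where messenger RNA enters, was at 9.32, 9.18 and 9.33 in CON and 8.78, 8.83 and 8.92 in TSR. It fell by 0.43 ± 0.063 (adjusted p = 3.83e-05) with no overlap of the groups. Rps14, a gene whose loss is known in a form of myelodysplastic syndrome, fell by 0.34 ± 0.068 (adjusted p = 0.000897). Rps19, the gene most often mutated in Diamond-Blackfan anaemia, was at 6.43, 6.23 and 6.59 in CON and 6.60, 6.17 and 6.08 in TSR, and the groups overlapped (adjusted p = 0.471).

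In the large subunit, Rpl24, known from the Belly spot and tail mouse, was at 9.50, 10.17 and 9.39 in CON ZT7 and 9.05, 9.19 and 9.15 in TSR ZT7. It fell by 0.56 ± 0.14 (adjusted p = 0.00553), and CON replicate 2 was the highest of the 6 arrays by a wide margin. Rpl38 was at 10.91, 11.20 and 10.91 in CON and 10.50, 10.43 and 10.47 in TSR, a fall of 0.54 ± 0.077 (adjusted p = 3.1e-05) with no overlap. Rpl26, which also binds p53 messenger RNA, was at 7.97, 7.75 and 7.71 in CON and 7.42, 7.45 and 7.54 in TSR. It fell by 0.34 ± 0.098 (adjusted p = 0.0129). Rpl10a, the protein tagged in mice for translating ribosome purification, fell by 0.31 ± 0.058 (adjusted p = 0.000425). Rpl5, which carries 5S ribosomal RNA and can bind Mdm2, was at 10.14, 10.36 and 10.20 in CON and 10.29, 10.25 and 10.28 in TSR, and the groups overlapped (difference 0.04 ± 0.061, adjusted p = 0.682). Rpl22, the protein tagged in RiboTag mice, differed by 0.03 ± 0.11 (adjusted p = 0.866).

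Of the stalk genes, Rplp2 was at 6.89, 7.16 and 6.87 in CON and 6.47, 6.37 and 6.40 in TSR, and fell by 0.56 ± 0.085 (adjusted p = 6.15e-05). With 24 arrays the same difference had a limma adjusted p of 0.124. Rplp0, the protein that anchors the stalk, was at 9.96, 9.98 and 9.85 in CON and 9.97, 9.62 and 9.92 in TSR. Its groups overlapped (adjusted p = 0.376), and the same held for Rplp1, the partner of Rplp2 in the stalk, at 11.74, 11.50 and 11.67 in CON and 11.51, 11.61 and 11.51 in TSR (adjusted p = 0.358). The second probe set of Rplp1 differed by -0.35, and the range of 0.252 between its probe sets was the widest of the 37 genes with several. Among the paralogs, Rps4l fell by 0.44 ± 0.10 (adjusted p = 0.00311), while Rpl7l1 differed by 0.19 ± 0.082 (adjusted p = 0.0908). Rps23rg1 differed by 0.25 ± 0.16 (adjusted p = 0.266).

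**Figure D2:**
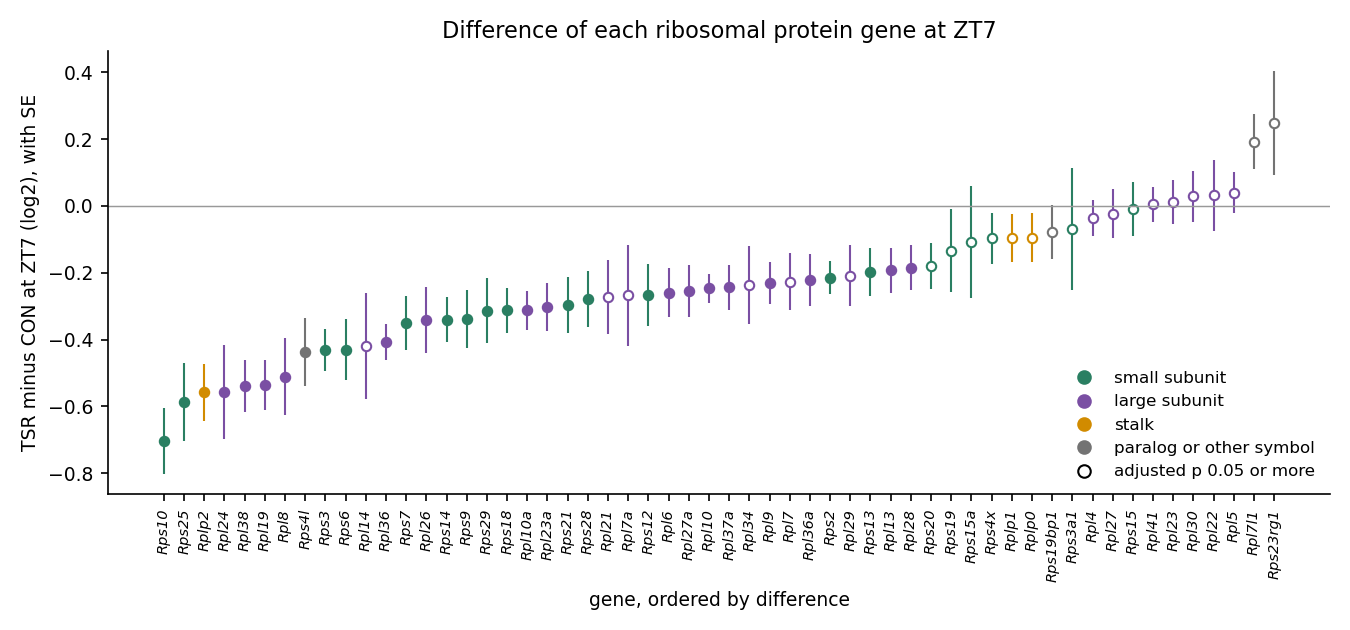
Difference TSR minus CON at ZT7 (log2 units, with the standard error of the 20-array fit, y axis) of the 56 tested genes, ordered by size along the x axis and coloured by role. Filled points are the 32 genes with an adjusted p under 0.05, all below 0, from Rps10 at -0.70 to Rpl28 at -0.18; the largest positive values, Rpl7l1 and Rps23rg1, did not pass.

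The direction at ZT7 did not rest on the probe set kept for a gene. In 37 genes with several probe sets of different values, 35 had every probe set below 0, and 185 of these 187 probe sets were below 0. The exceptions were 1 probe set each of Rpl5 and Rpl23. The median range between the probe sets of a gene was 0.16 log2 units. Over all 214 probe sets of the 62 genes, 202 were below 0. Some probe sets of a gene hold identical values, with 8 distinct among the 14 of Rps12 and 11 among the 13 of Rpl23a. The counts of probe sets are therefore larger than those of distinct measurements. Ribosomal protein genes have many processed pseudogenes and near-identical copies, and how far probes are shared with them was not tested.

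The start sites of 7 members that moved are shown because the oligopyrimidine tract, where present, begins at the first transcribed base. RefSeq promoter sequences (GRCm38.p6, 250 bases before to 50 after the start) matched 50 of the 62 genes. Each line gives 40 bases before to 20 after the start, 5′ to 3′ on the gene's strand, with capitals for the unbroken pyrimidine run of 6 or more bases that covers the start base. The first 4 genes had the largest falls at ZT7, and the last 3 had the largest rises at ZT13 among the genes with an entry.
Rps10, chr17:27635225-27635284, minus strand: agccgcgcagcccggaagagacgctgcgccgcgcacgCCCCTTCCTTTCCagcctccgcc
Rps25, chr9:44407674-44407733, plus strand: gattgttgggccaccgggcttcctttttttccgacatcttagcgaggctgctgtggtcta
Rplp2, chr7:141447611-141447670, plus strand: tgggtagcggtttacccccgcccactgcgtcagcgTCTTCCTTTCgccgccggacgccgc
Rpl24, chr16:55966235-55966294, plus strand: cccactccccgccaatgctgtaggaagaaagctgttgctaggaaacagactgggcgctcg
Rpl41, chr10:128549149-128549208, minus strand: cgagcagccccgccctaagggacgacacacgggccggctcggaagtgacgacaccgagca
Rps18, chr17:33955646-33955705, minus strand: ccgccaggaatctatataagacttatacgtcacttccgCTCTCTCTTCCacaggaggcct
Rpl5, chr5:107900488-107900547, plus strand: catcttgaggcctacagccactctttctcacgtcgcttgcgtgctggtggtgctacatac

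Rps10, Rplp2 and Rps18 hold such a run of 13, 10 and 11 bases at the listed start, and in the other 4 no such run covers it. Runs that do not cover the listed start base were not counted, and Rps25 and Rpl5 have pyrimidine runs before it. How closely the listed starts match the first transcribed base was not tested. Over all 50 genes 15 held a run over the listed start (30.0%), against 8.48% of 27025 genes with an entry. Among tested members with an entry, it was 9 of 26 that were lower at ZT7 (34.6%) and 5 of 18 others (27.8%). The letters CCGGAAG, the core bound by Ets factors such as Gabpa, were found on either strand of the 300 bases in 18 of the 50 (36.0%), against 9.93% of all genes. They were found in 13 of the 26 genes lower at ZT7 and in 3 of the 18 others. GATGGC, a Yy1 core, was in 11 of the 50 and 15.9% of all genes, TATAAA in 6 and 15.7%, and the E-box CACGTG in 5 and 8.09%. Matches are descriptions of these windows, no overlap between motifs was removed, and the split by ZT7 was made after the values were seen.

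Markers of neighbouring regions differed between the same ZT7 arrays. All 6 tested markers of basal forebrain and striatum were higher in TSR (median 1.25, 20 arrays), with a summed linear signal of 469.2 to 575.5 in CON and 1607.7 to 1746.8 in TSR. Chat of that list was below the filter. The summed signals, here and at the other times, take in the measured markers below the filter as well. All 6 tested suprachiasmatic markers were lower (median -0.68), from 2022.7 to 2053.6 in CON to 1194.2 to 1288.1 in TSR, and Vip and Nms were below the filter. All 5 tested paraventricular and supraoptic markers were lower (median -0.75), from 5194.6 to 5589.5 in CON to 3278.4 to 3463.3 in TSR, with Crh below the filter. Thalamus and cortex markers were higher in 2 of 4, from 336.7 to 341.7 in CON to 564.3 to 590.1 in TSR. Markers of the sampled arcuate and ventromedial nuclei were lower in 3 of 7, with overlapping sums of 1294.9 to 1443.1 in CON and 1258.2 to 1323.7 in TSR. Endothelial and mural markers were higher in 4 of 7, from 789.4 to 879.8 in CON to 1111.5 to 1168.8 in TSR. Summed neuronal markers were 15622.2 to 16762.3 in CON and 17208.5 to 18446.4 in TSR, and 3 of 7 neuronal genes were higher and 1 lower. Their part in the fall of the ribosomal protein genes was not tested.

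Genes that work with the ribosomal proteins were read at ZT7 in the same 20-array fit, beside the 13.8% lower and 12.9% higher among all genes, and differences between the lists were not tested. Of 75 tested mitochondrial ribosomal protein genes, 2 were lower and 6 higher, with a median of 0.01. Of 36 ribosome biogenesis genes, 1 was lower and 7 higher (median 0.05), and over the day 3 were lower and 21 higher, with Dkc1, the pseudouridine synthase of box H/ACA particles, higher by 0.44 ± 0.052. Of 14 translation factors and related genes whose messenger RNAs share the oligopyrimidine start, 2 were lower and 1 higher (median -0.07), Eif4b falling by 0.22 ± 0.067 and Eif3f by 0.31 ± 0.11. Of 16 genes of mTOR and S6 signalling, 7 were lower and 2 higher (median -0.17). Larp1, which binds the oligopyrimidine start, fell by 0.19 ± 0.057, and Deptor, an inhibitor of mTOR, rose by 0.47 ± 0.095. Rpsa, a ribosomal protein outside the symbol rule, fell by 0.20 ± 0.056, and Fau, the other one measured, differed by -0.12 ± 0.053 (adjusted p = 0.11). Of the promoter factors Myc, Mycn, Gabpa, Yy1 and Sp1, 1 was lower and 1 higher.

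At ZT13 most genes that passed were lower and a few were higher. With 20 arrays 23 of the 56 genes were lower and 5 higher, where 21.9% of all tested genes were lower and 24% higher (45.9% in all). With 24 arrays 0 passed, beside 0.418% of all genes, and 6 had an unadjusted p under 0.05. Within the 6 arrays of ZT13 alone, 0 of the 56 and 0.00% of all genes passed, and 5 of the 56 had an unadjusted p under 0.05. The median was -0.21 with 20 arrays and -0.30 with 24, and every TSR array, the narrow one included, lay below every CON array in 26 genes and above in 0, beside 24.5% and 2.76% of all genes. Leaving out 1 of the 20 arrays gave between 21 and 32 genes called.

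Rpl10a was at 10.53, 10.66 and 10.65 in CON ZT13 and 9.86 and 9.92 in TSR ZT13, with the narrow array at 8.56. It fell by 0.72 ± 0.064 in 20 arrays (adjusted p = 1.07e-07), the difference in 24 was -1.16 ± 0.63 (adjusted p = 0.428), and no array of the groups overlapped. Rps4l, a paralog of the X-linked Rps4x, was at 7.57, 7.58 and 7.59 in CON and 6.86 and 6.85 in TSR. Here the narrow TSR array was the highest of all, at 8.26, and the fall was 0.72 ± 0.11 with 20 arrays (adjusted p = 4.78e-05). With 24 arrays the difference was -0.26 ± 0.30 (limma adjusted p = 0.734). Rps10 was at 9.03, 9.14 and 9.27 in CON and 8.47 and 8.56 in TSR, with the narrow array at 7.87. It fell by 0.64 ± 0.11 (adjusted p = 0.00014), Rpl24 by 0.62 ± 0.16 (adjusted p = 0.00339), Rplp0 by 0.31 ± 0.082 and Rplp1 by 0.30 ± 0.080.

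The 5 genes that were higher at ZT13 in the 20-array fit were Rpl30, Rpl41, Rps18, Rpl5 and Rpl23. Rpl30, which also binds selenoprotein messenger RNAs, was at 7.61, 7.58 and 7.48 in CON and 8.22 and 8.32 in TSR, a rise of 0.72 ± 0.086 (adjusted p = 2.33e-06). The narrow TSR array was at 7.24, below all of these, and with 24 arrays the difference was 0.37 ± 0.22 (adjusted p = 0.476). Rpl41, a very short basic protein, was at 11.06, 10.88 and 11.02 in CON and 11.48 and 11.45 in TSR, with the narrow array at 10.18. It rose by 0.48 ± 0.057 (adjusted p = 2.27e-06), and its difference with 24 arrays was 0.05 ± 0.43. Rps18, a protein of the head of the small subunit, was at 10.48, 10.50 and 10.61 in CON and 10.86 and 10.99 in TSR, with the narrow array at 9.37. It rose by 0.39 ± 0.076 (adjusted p = 0.000339) at ZT13, whereas at ZT7 it had fallen by 0.31 ± 0.068 (adjusted p = 0.00175). With 24 arrays the sign at ZT13 turned for Rps18 (-0.12 ± 0.52) and for Rpl5 (-0.19 ± 0.45, against 0.29 ± 0.069), and neither passed.

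Region markers differed at ZT13 as well. All 6 suprachiasmatic markers and 4 of 5 paraventricular and supraoptic markers were lower with 20 arrays, with summed signals of 1557.7 to 1718.1 in CON against 992.4 to 1034.6 in TSR, and 4364.4 to 4564.4 against 2817.5 to 2884.4. Of the 6 basal forebrain and striatum markers 3 were higher and 2 lower (874.4 to 963.1 in CON, 1046.6 to 1159.2 in TSR). Thalamus and cortex markers were higher in 3 of 4 (370.8 to 406.4 in CON, 748.9 to 773.8 in TSR), and arcuate and ventromedial markers were lower in 4 of 7 (1363.2 to 1462.1 and 1133.3 to 1137.2). Their part in the ZT13 differences was not tested.

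At ZT19 the direction of the group depended on the narrow arrays. With 24 arrays 13 of the 56 genes were higher and 7 lower, where 44.2% of all genes were higher and 11.2% lower (55.4% in all), and the median was 0.55 beside 0.59 for all genes. With 20 arrays 3 were higher and 15 lower, where 17.6% of all genes were higher and 7.06% lower (24.6% in all), and the median was -0.19 beside 0.08. After a second quantile normalization of all 24 arrays, 5 were higher and 22 lower, with a median of -0.12. No share of all genes is given for that setting. Within the 6 arrays of ZT19, 0 of the 56 and 0.0334% of all genes passed, and 14 of the 56 had an unadjusted p under 0.05. The sign differed between the 24-array and 20-array fits in 27 genes, while the median of all tested genes moved from 0.59 to 0.08. Sign changes over all genes were not counted. Leaving out either narrow CON array, or TSR ZT19 replicate 1 or 2, took the 24-array count from 20 to 0. Leaving out TSR replicate 3 took it to 7, and CON replicate 1 or TSR ZT1 replicate 3 to 39 or 33. These leave-one-out counts were not set beside those of all genes.

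Rpl10a shows the turn. It was at 10.45, 7.45 and 7.49 in CON ZT19 and 10.04, 10.07 and 9.97 in TSR ZT19, so TSR lay between the usual CON array and the narrow ones. Its difference was 1.56 ± 0.63 with 24 arrays (adjusted p = 0.0421) and -0.43 ± 0.082 with 20 (adjusted p = 0.00138), and it alone passed in opposite directions. Called higher in both fits were Rpl30 (0.79 ± 0.22 and 0.43 ± 0.11), Rpl5 (1.33 ± 0.45 and 0.33 ± 0.087) and Rps4x (0.76 ± 0.25 and 0.34 ± 0.11). After the second quantile normalization Rps4x differed by -0.14. Called lower in both were Rpl29 (-1.57 ± 0.50 and -0.45 ± 0.13), Rpl37a (-1.01 ± 0.26 and -0.59 ± 0.095), Rps19 (-0.86 ± 0.24 and -0.58 ± 0.17) and Rps4l (-1.25 ± 0.30 and -0.67 ± 0.14). Rps19 was at 6.54, 6.98 and 6.94 in CON and 5.84, 6.07 and 5.98 in TSR, and Rps4l at 7.30, 8.21 and 8.11 in CON and 6.77, 6.56 and 6.56 in TSR. In both, all 3 TSR arrays were below all 3 CON arrays, the narrow CON arrays being the highest. Of the region markers at ZT19, 5 of 6 for basal forebrain and striatum were higher in the 20-array fit (490.1 in the 1 CON array, 880.5 to 932.0 in TSR). Thalamus and cortex markers were higher in 3 of 4 (326.2 in CON, 623.8 to 648.8 in TSR). Of 5 paraventricular and supraoptic markers 3 were lower and 1 higher, 2 of 6 suprachiasmatic markers were higher, and 2 of 7 arcuate and ventromedial markers were lower (1517.0 in CON, 1092.7 to 1117.5 in TSR). Their part in the ZT19 differences was not tested.

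**Figure D3:**
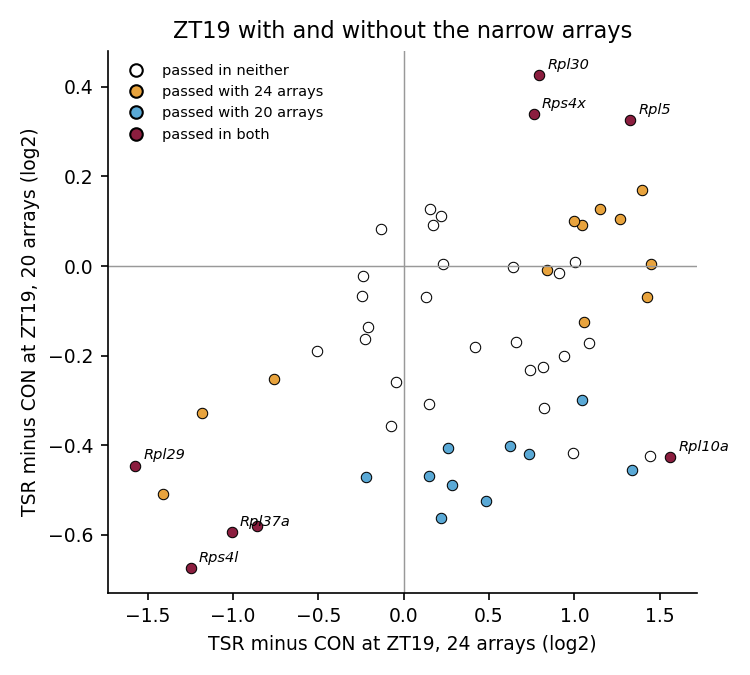
Difference TSR minus CON at ZT19 of each of the 56 genes (log2 units) with 24 arrays (x axis) and with the 20 arrays of usual range (y axis). Colours show in which fit a gene passed at adjusted p under 0.05. Between the fits 27 genes change sign, with no count over all genes, and Rpl10a goes from 1.56 to -0.43.

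At ZT1, a time of day within the hours of handling, few genes passed. With 24 arrays 0 of the 56 passed, beside 0.0502% of all genes, 3 had an unadjusted p under 0.05, and the median was -0.31. With 20 arrays 5 were higher and 1 lower, where 6.95% of all genes were higher and 3.09% lower, and the median was 0.08. After quantile normalization of the 20 arrays the split was 6 higher and 4 lower, with a median of 0.02. Rps4x was at 8.91, 9.07 and 9.07 in CON and 9.44 and 9.45 in TSR, with the narrow array at 8.60, and rose by 0.43 ± 0.085 in 20 arrays (adjusted p = 0.00321). Rps28 rose by 0.43 ± 0.094, and Rps15, known for its part in exporting the small subunit from the nucleus, by 0.32 ± 0.091. Rpl28 rose by 0.32 ± 0.076 and Rpl27 by 0.30 ± 0.081, while Rpl10, a late-joining large subunit protein, fell by 0.23 ± 0.049. With 24 arrays Rpl28 differed by -0.33 ± 0.44 and Rps15 by -0.29 ± 0.42, and neither passed. The ZT1 calls rested on 2 TSR arrays: without TSR ZT1 replicate 1 there were 2, and without replicate 2 there were 0. Without CON ZT13 replicate 1 or CON ZT7 replicate 2, which enter through the pooled spread, there were 11 or 14. Other markers differed at ZT1 in the 20-array fit. Oligodendrocyte markers were higher in 4 of 5 (median 0.42), with a summed signal of 4112.8 to 4154.7 in CON and 5885.6 to 5908.7 in the 2 TSR arrays, and 1002.7 in the narrow one. Choroid plexus markers were higher in 2 of 2, with Kl and Folr1 below the filter. Markers of the arcuate and ventromedial nuclei were lower in 4 of 7 (1368.7 to 1471.1 in CON, 1040.6 to 1075.5 in TSR), and those of thalamus and cortex in 2 of 4 (526.5 to 555.5 and 416.6 to 423.6). Their part in the ZT1 differences was not tested.

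Across times in the 20-array fit, 10 genes were lower at ZT7, ZT13 and ZT19 together. They were Rps10 and Rps21 of the small subunit, Rpl10a, Rpl13, Rpl19, Rpl23a, Rpl36, Rpl37a and Rpl38 of the large subunit, and the paralog Rps4l. At ZT7 alone 11 passed as lower, among them Rps2, Rps3, Rps6, Rps7, Rps14, Rpl6 and Rpl9. Such patterns over several times, here and below, were not counted over all genes. Each ZT19 call compares 3 TSR arrays with 1 CON array. Passing at 1 time and not at another does not show a difference between the times. The test of that difference passed in 33 of the 56 genes (29.7% of all genes), led by Rpl10a, Rpl19, Rpl28, Rps18, Rpl13 and Rpl30. With 24 arrays it passed in 0 genes (0.318% of all genes), and 17 had an unadjusted p under 0.05. Without CON ZT19 replicate 1 that 24-array count became 42, and the count over all genes in that setting is not given. The 20-array count fell to 21 without TSR ZT1 replicate 1 and to 18 without replicate 2. At no time did 11 genes pass, among them Rpl14, Rpl21, Rpl22, Rpl7, Rps15a, Rps20 and Rps3a1.

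**Figure D4:**
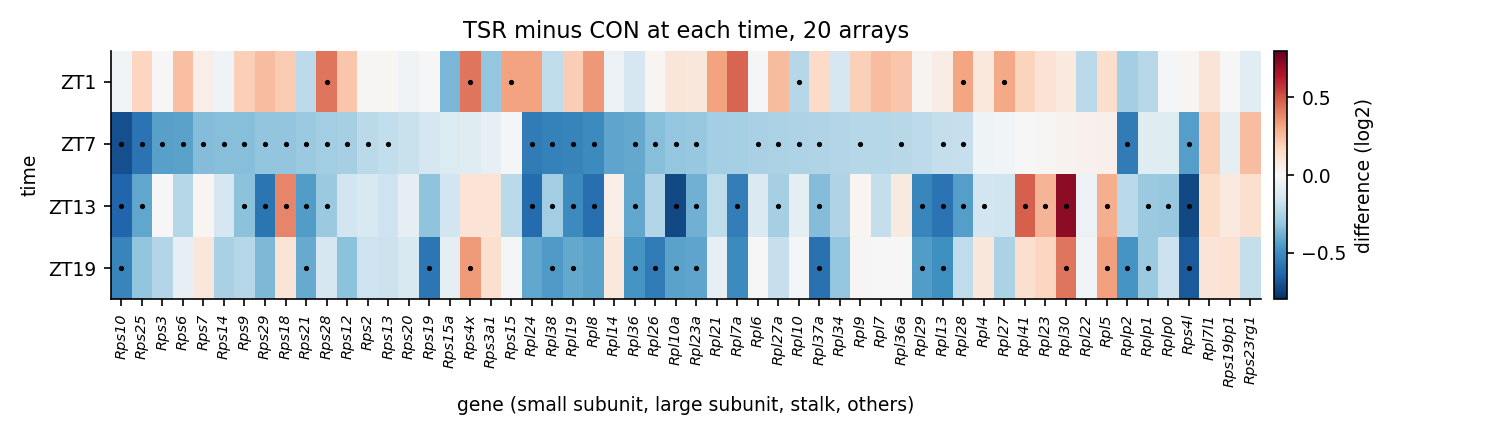
Difference TSR minus CON (colour, log2 units) of the 56 genes (x axis, by role and ZT7 difference) at the 4 times (y axis) in the 20-array fit, with a dot where the adjusted p was under 0.05. The ZT7 row holds 32 dots, all for lower values, while the ZT13 row also holds 5 higher genes and the ZT1 row 5 of its 6 dots for higher values.

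Time of day was tested within each condition. In TSR, 34 of the 56 passed the test of time in the 20-array fit (24.2% of all genes). Of these, 32 had their highest group mean at ZT1 (94.1%), where 46.1% of all genes that passed had it, and the lowest mean was at ZT19 in 18 (52.9%, against 29.1% of all genes that passed) and at ZT7 in 13 (38.2%, against 39.4%). In CON, 20 of the 56 passed, a share near the 29.8% of all genes. Of these 20, 12 had the highest mean at ZT13 and 13 the lowest at ZT1, as did 41.7% and 24.8% of all genes that passed. The median distance from the lowest to the highest mean was 0.40 log2 units in TSR and 0.36 in CON. Rpl28 was an example, at 10.49, 10.31 and 10.33 in CON ZT1 and 10.82, 10.83 and 10.81 in CON ZT13, but at 10.70 and 10.68 in TSR ZT1 and 10.32 and 10.44 in TSR ZT13. Its test of time passed in CON (adjusted p = 0.000363) and in TSR (adjusted p = 0.000944). With 24 arrays 0 genes passed in either condition, beside 0.301% of all genes in CON and 0.125% in TSR, and the unadjusted p was under 0.05 in 34 genes in CON and 1 in TSR. In CON the 24-array count became 43 without CON ZT19 replicate 1, 38 without TSR ZT1 replicate 3 and 30 without TSR ZT13 replicate 2. Neither these counts nor the unadjusted ones were set beside those of all genes. On the 2 narrow CON ZT19 arrays the median shift of all tested genes was -0.817 and -0.835. In TSR the 20-array count fell from 34 to 14 without TSR ZT1 replicate 1 and to 16 without replicate 2.

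**Figure D5:**
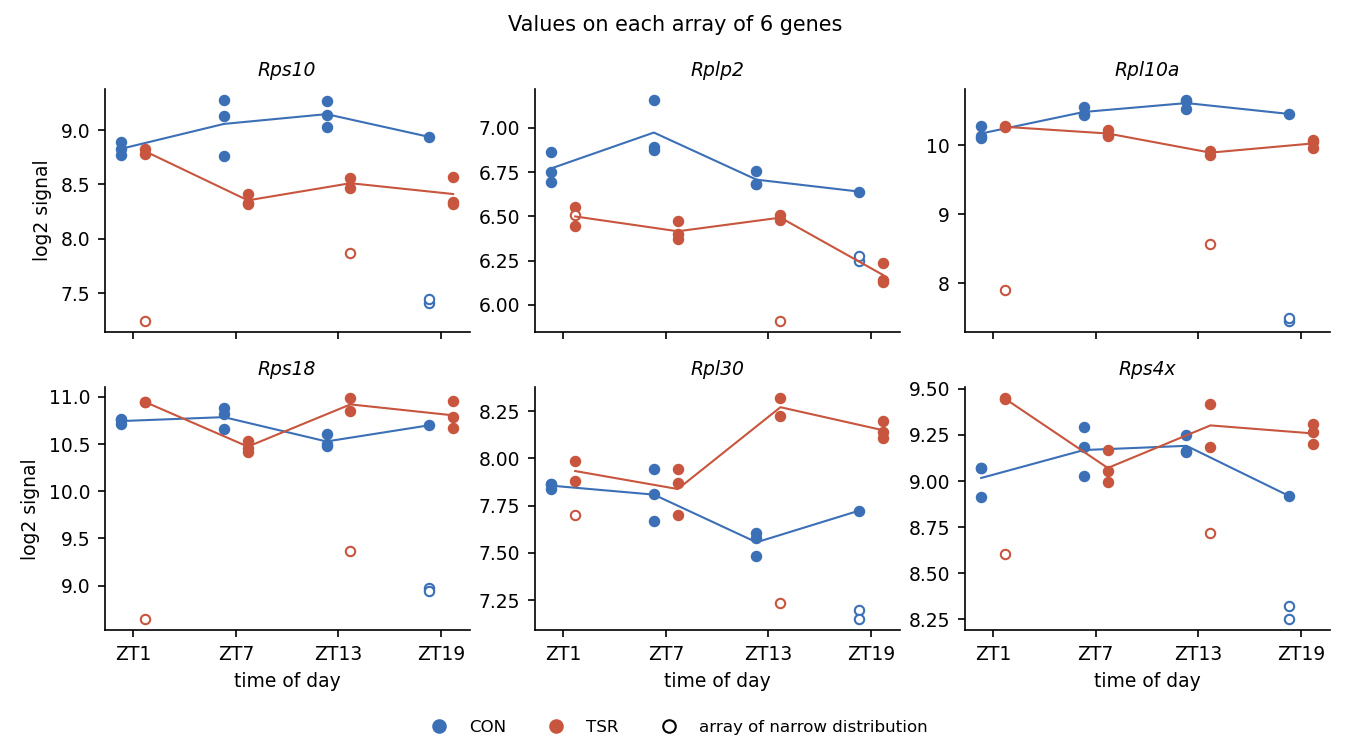
Log2 signal (y axis, a scale for each gene) on each array of 6 genes by time of day (x axis), CON in blue and TSR in red, with open points for the 4 narrow arrays and lines through the means of the others. Rps10, Rplp2 and Rpl10a lie lower in TSR at ZT7 and ZT13, Rplp2 also at ZT1, Rps18 is lower at ZT7 and higher at ZT13, and Rpl30 and Rps4x are higher in TSR at ZT19.

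Within groups the genes varied together only in part. Over the 19 arrays of groups that keep at least 2 after the narrow arrays are left out, the mean correlation between pairs of the 56 genes was 0.137, beside 0.0902 for all tested genes, and 955 of 1540 pairs were above 0. Rps10 (0.918) and Rps15 (0.917) followed the mean of the other members most closely, while Rplp1 (-0.719) and Rpl41 (-0.674) ran against it. The arrays of a group share their processing, and these values are descriptions.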

How the data were processed

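The 24 arrays were labelled from total RNA isolated with Trizol, per the labels' protocols. Affymetrix Expression Console is named in the submitters' processing notes, without a version or summarization method. The authors deposited log2 signals of 35556 probe sets, whose distributions were alike in 20 of 24 arrays. The number of arrays limits the precision.

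Some deposited cells had a shifted decimal point. Of 853344 cells 2649 (0.310%) were restored, 70 were set to missing and 9 were missing as deposited. Among the 1488 cells of the probe sets used for the 62 genes, 4 were restored and 0 were missing. The restoration was tested on shifted copies of the data.

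Probe sets with exactly 1 gene symbol (21789) were used, 1 per gene, chosen by its mean signal (the highest). Probe sets under the 40th percentile (5.84) were left out. A model of 8 group means was fitted in limma 3.58.1 (R 4.3.3), with empirical Bayes moderation with a trend. P-values (2-sided) were adjusted by Benjamini-Hochberg over all genes tested within each contrast, and an adjusted p under 0.05 passed. Time of day and the difference between times were tested by F tests over the 4 times. The fits were tested on simulated data.

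Groups came from the description and title of each sample. The members, gene lists and tests were chosen with earlier results of these data known. For each contrast and fit, the text may name the 4 largest changes in each direction among members that passed, or the 2 largest where none did. It may also name the 6 members of smallest p in each F test and a set of well-known members. Rps2, Rps7, Rps12, Rps20, Rps21, Rps29, Rps3a1, Rpl6, Rpl13, Rpl19, Rpl23a and Rpl36, where outside that rule, were chosen after their values were seen. Other settings covered the arrays used, normalization, the filter, probe sets, moderation, array weights, a replicate block and leaving out each array. Promoters came from RefSeq, matched by symbol.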

Additional observations from a re-analysis of the deposited data

Results flagged for a closer look

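The effect of sleep restriction differed between the 4 times in 33 of the 56 genes in the 20-array fit (F test of the difference, limma adjusted p under 0.05). The 6 with the smallest adjusted p were Rpl10a (3.09e-05), Rpl19 (0.000273), Rpl28 (0.000287), Rps18 (0.000292), Rpl13 (0.000619) and Rpl30 (0.000696). With 24 arrays 0 genes passed this test. Among these genes Rpl10a, Rpl13 and Rpl19 were lower in TSR at ZT7, ZT13 and ZT19 and did not pass at ZT1. Rpl28 was higher at ZT1 and lower at ZT7 and ZT13, Rps18 was lower at ZT7 and higher at ZT13, and Rpl30 was higher at ZT13 and ZT19. The cause of the difference between times was not tested. Outliers within groups were not tested, since each group holds 3 arrays.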

How the results depend on the processing

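The fall at ZT7 kept a median between -0.29 and -0.22 in every setting run, but its count of calls depended on the spread. In the order average, ZT1, ZT7, ZT13, ZT19, time in CON, time in TSR and difference between times, the counts of the 56 genes called with 24 arrays were 1, 0, 0, 0, 20, 0, 0 and 0. Without the 4 narrow arrays they were 39, 6, 32, 28, 18, 20, 34 and 33, and with quantile normalization in addition 42, 10, 36, 30, 31, 31, 34 and 33. Of settings chosen after seeing the data, centring of 20 arrays gave 42, 8, 35, 33, 33, 29, 33 and 34, and the mean of all probe sets gave 40, 6, 30, 30, 19, 22, 36 and 30. With 24 arrays, the narrow range as a covariate gave 28, 1, 12, 15, 11, 7, 2 and 8, a second quantile normalization 9, 1, 4, 2, 27, 7, 0 and 1, and centring 9, 0, 0, 4, 25, 1, 0 and 0. Array weights, estimated gene by gene after the default estimate did not converge, gave 45, 22, 34, 35, 45, 52, 43 and 53. Fits to the arrays of 1 time gave 22 at ZT7 and 0 at ZT1, ZT13 and ZT19. The 60th percentile filter, which removed Rplp2, gave 0 in the average. With 24 arrays the counts with no filter, the mean of all probe sets, moderation without a trend or shifted cells left out differed from those above by at most 2 genes. Shares of all tested genes are given above for the main 24-array and 20-array fits and for ZT7, ZT13 and ZT19 alone. Counts in the other settings, the replicate block and leave-one-out fits included, have no such share beside them. They do not show that the 56 genes stand apart from other genes.

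The median difference was -0.31 at ZT1 and 0.55 at ZT19 with 24 arrays. At ZT1 it became 0.0795 without the narrow arrays, 0.048 with the covariate, 0.0206 and 0.0173 with quantile normalization and centring of 20 arrays, 0.0992 with the mean of probe sets of 20 arrays and 0.0826 with array weights. At ZT19 it became -0.19 without the narrow arrays, -0.12 with the covariate or a second quantile normalization, 0.0924 with centring and 0.93 with array weights. Within the 20 arrays it was -0.27 with quantile normalization, -0.28 with centring and -0.23 with the mean of probe sets. In the average, it went from -0.13 to 0.0694 with array weights. The cause was not tested.

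Replicate numbers were not treated as pairs. Of 12 same-numbered pairs 5 deviated together with a correlation over 0.1, and the range was from -0.43 to 0.395. The ZT19 pairs were at 0.395, 0.171 and 0.270. With 3 arrays per group these values cannot exclude a pairing. A replicate block gave 1, 0, 0, 0, 20, 0, 0 and 0 calls with 24 arrays and, in a fit added after seeing the data, 38, 6, 30, 28, 16, 20, 30 and 30 with 20, where the medians at ZT1 and ZT19 were 0.0632 and -0.19.

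Leaving out 1 of 24 arrays gave 1 to 4, 0, 0 to 1, 0, 0 to 39, 0 to 43, 0 and 0 to 42 calls, and 1 of 20 arrays 34 to 39, 0 to 14, 22 to 34, 21 to 32, 16 to 24, 15 to 26, 14 to 40 and 18 to 36. The medians in the first 5 contrasts ranged from -0.16 to -0.02, -0.54 to 0.08, -0.29 to -0.22, -0.48 to -0.21 and 0.31 to 0.97 with 24 arrays and from -0.145 to -0.12, 0.0585 to 0.0835, -0.29 to -0.22, -0.24 to -0.16 and -0.22 to -0.16 with 20. CON ZT19 replicate 1 was not left out of the 20, since no other CON array remains at ZT19. The 20-array ranges therefore do not show how far ZT19, the average, time in CON and the difference between times rest on it.

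Some single genes turned sign. At ZT19, called higher or above 0 with 24 arrays, Rpl10a was at -0.43 and -0.48 without the narrow arrays and with quantile normalization in addition, Rpl26 at -0.56 and -0.67, Rps15a at -0.0703 and -0.18, and Rpl7 at -0.11 in the second of these. Rps4x was at -0.14 after a second quantile normalization. At ZT1, below 0 with 24 arrays, Rpl28 was at 0.32, 0.26 and, with array weights, 0.33, and Rps15 at 0.32, 0.26 and 0.33. At ZT13 Rpl5 was at 0.29, 0.31, 0.22 with weights and 0.34 with the covariate, and Rps18 at 0.39, 0.42, 0.33 and 0.50. Rpl38 was at 0.28 in the average with weights. Over the named genes, their contrasts and planned settings, 23 values turned, 102 newly passed, 99 no longer passed, 20 changed sign without passing and 1482 kept direction and side.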
